A study of Mus musculus with 3 samples.

Results

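Trimethylated lysine 36 of histone H3 (H3K36me3) was examined over 8 genes of the hypoxia-inducible factor (HIF) system in mouse regulatory T (Treg) cells of the spleen and the large intestine (LI). The genes were Epas1, Hif1a, Arnt, Egln1, Egln2, Egln3, Vhl and Hif1an. They were selected on their biological role and on the measured LI over spleen ratio of Epas1 in these same libraries, so their ratios are given as a description and no p-value is attached to any of them. A peak was counted to a gene when its midpoint lay in the gene's body in the GENCODE M21 annotation. By that rule 119 of 120910 peaks belonged to the 8 genes, and 114125 lay in any protein-coding gene. The 8 genes were among 10037 protein-coding genes with a peak, of which 9456 had at least 20 RPKM (read coverage relative to length and library size) summed over both libraries. All 8 genes passed that limit.

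The cells were CD3+CD4+Foxp3-YFP+ Treg cells sorted from C57BL/6 mice labelled Foxp3-YFP, which the study calls Foxp3 Cre-YFP mice and which express Cre recombinase and a yellow fluorescent protein from the Foxp3 locus. Both tissues came from mice at steady state, and Setd2, the enzyme that writes the mark, was intact in them. Cells of female and male mice were pooled into 1 library per tissue, so no value below has a replicate and every difference is between 2 libraries. An input library of splenic Treg chromatin was not analysed here. The step between low values corresponded to 29600000 mapped reads in spleen and 38100000 in LI. All 11 Treg and CD4 T cell markers, Foxp3 and Il2ra among them, had peaks, with 2050 RPKM in all in spleen and 1840 RPKM in LI. Ikzf2 alone gave 1205 RPKM of this in spleen and 851 RPKM in LI. By ratio, 6 markers were higher in LI and 5 in spleen, with a median log2 ratio of LI over spleen of 0.13.

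HIF is a transcription factor made of an oxygen-regulated alpha subunit and a constant beta subunit. Hif1a and Epas1, which encodes HIF-2 alpha, give the alpha subunits, and Arnt gives the beta subunit. In the presence of oxygen the prolyl hydroxylases encoded by Egln1 (PHD2), Egln2 (PHD1) and Egln3 (PHD3) mark the alpha subunits for the von Hippel-Lindau protein (Vhl), which directs their destruction, while Hif1an (factor inhibiting HIF) hydroxylates another site and blocks the binding of coactivators. Egln3 is itself a well-known target gene of HIF. H3K36me3 is laid down behind elongating RNA polymerase II and lies over the bodies of transcribed genes, towards their 3' ends. The large intestine is known for low oxygen near its epithelium. Oxygen and HIF protein were not measured here.

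To show what the compared regions look like, 4 intronic stretches are printed from the GRCm38 reference, the assembly of mm10, each in the direction of its gene. They are the 2 Epas1 peaks of at most 300 bases with the largest ratio, the middle 300 bases of the Egln3 peak with the largest ratio among those wholly in an intron, and the Arnt peak of at most 300 bases with the ratio nearest to 0. Capitals mark the hypoxia response core, that is ACGTG or GCGTG on either strand, the short motif to which HIF binds.
Epas1 chr17:86796451-86796701 (+ strand): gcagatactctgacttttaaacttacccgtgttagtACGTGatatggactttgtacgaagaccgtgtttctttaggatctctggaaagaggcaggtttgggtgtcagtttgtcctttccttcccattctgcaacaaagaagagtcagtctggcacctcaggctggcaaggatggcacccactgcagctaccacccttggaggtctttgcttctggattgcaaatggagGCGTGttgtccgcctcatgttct
Epas1 chr17:86820472-86820671 (+ strand): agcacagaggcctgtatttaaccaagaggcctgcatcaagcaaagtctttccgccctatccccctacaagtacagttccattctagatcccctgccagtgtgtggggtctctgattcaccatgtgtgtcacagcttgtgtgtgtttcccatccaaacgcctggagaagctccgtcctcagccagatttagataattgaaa
Egln3 chr12:54186033-54186332 (- strand): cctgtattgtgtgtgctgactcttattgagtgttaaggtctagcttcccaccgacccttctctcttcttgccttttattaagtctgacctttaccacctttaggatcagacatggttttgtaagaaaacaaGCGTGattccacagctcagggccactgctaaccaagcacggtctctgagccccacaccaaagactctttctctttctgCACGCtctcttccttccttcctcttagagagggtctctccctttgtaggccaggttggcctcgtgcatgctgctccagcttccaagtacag
Arnt chr3:95439546-95439761 (+ strand): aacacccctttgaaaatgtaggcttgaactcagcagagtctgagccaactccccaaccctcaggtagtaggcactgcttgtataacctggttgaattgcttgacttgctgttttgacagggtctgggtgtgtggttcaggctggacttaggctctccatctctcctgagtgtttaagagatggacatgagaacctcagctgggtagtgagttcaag
The first Epas1 stretch had 0.202 RPKM in spleen and 14.6 RPKM in LI, and the second 0.0928 and 8.72 RPKM. These 2 peaks, picked for their ratio, held about 0.14 and 0.05 reads in spleen and 12.7 and 6.04 in LI, with reads taken as covering 200 bp. Their spleen values are extremes and lie below the mean spleen level within Epas1 peaks of 3.28 RPKM. In the Egln3 peak the values were 3.18 RPKM (spleen) and 12.3 RPKM (LI), and in the Arnt peak 9.48 and 9.18 RPKM. The GC content of the 4 stretches was alike, from 49.0% to 49.5%. The first Epas1 stretch and the Egln3 stretch each held 2 cores and the others held 0. For comparison, a core was present in 22.0% of 114125 windows of 200 bases centred on the peaks of coding genes and in 30.6% of 81763 windows of 300 bases. Over whole peaks the cores numbered 61 in Epas1 (1.90 per kb), 8 in Egln3 (1.62 per kb), 17 in Hif1a (0.813 per kb), 32 in Arnt (1.16 per kb), 19 in Egln1 (1.99 per kb), 6 in Egln2 (0.920 per kb), 9 in Vhl (2.08 per kb) and 17 in Hif1an (1.56 per kb). Epas1 and Egln3 thus lay among the other genes in the density of cores. A match to these letters is a description of the sequence and not a binding site.

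Epas1 and Egln3 carried more H3K36me3 in LI Treg cells, Hif1a slightly more, and the other 5 genes had ratios between -0.39 and 0.036 on the log2 scale. Over 2-fold higher signal in LI was found for 2 of the 8 genes, Epas1 and Egln3, and 0 of them were over 2-fold higher in spleen. Over all tested coding genes, 304 of 9456 (3.21%) were over 2-fold higher in LI and 171 (1.81%) in spleen. Because the measured ratio of Epas1 led to the choice of the group, nothing is read from this count. The middle 50% of all tested genes lay between -0.20 and 0.23, with a median of 0.0045. All ratios of genes are log2 of summed LI over spleen RPKM with 0.5 RPKM added, less the log2 ratio of the library totals (0.046). Their intervals are approximate 95% counting intervals that take each read as covering 200 bp, and they do not cover the spread between animals.

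**Figure D1:**
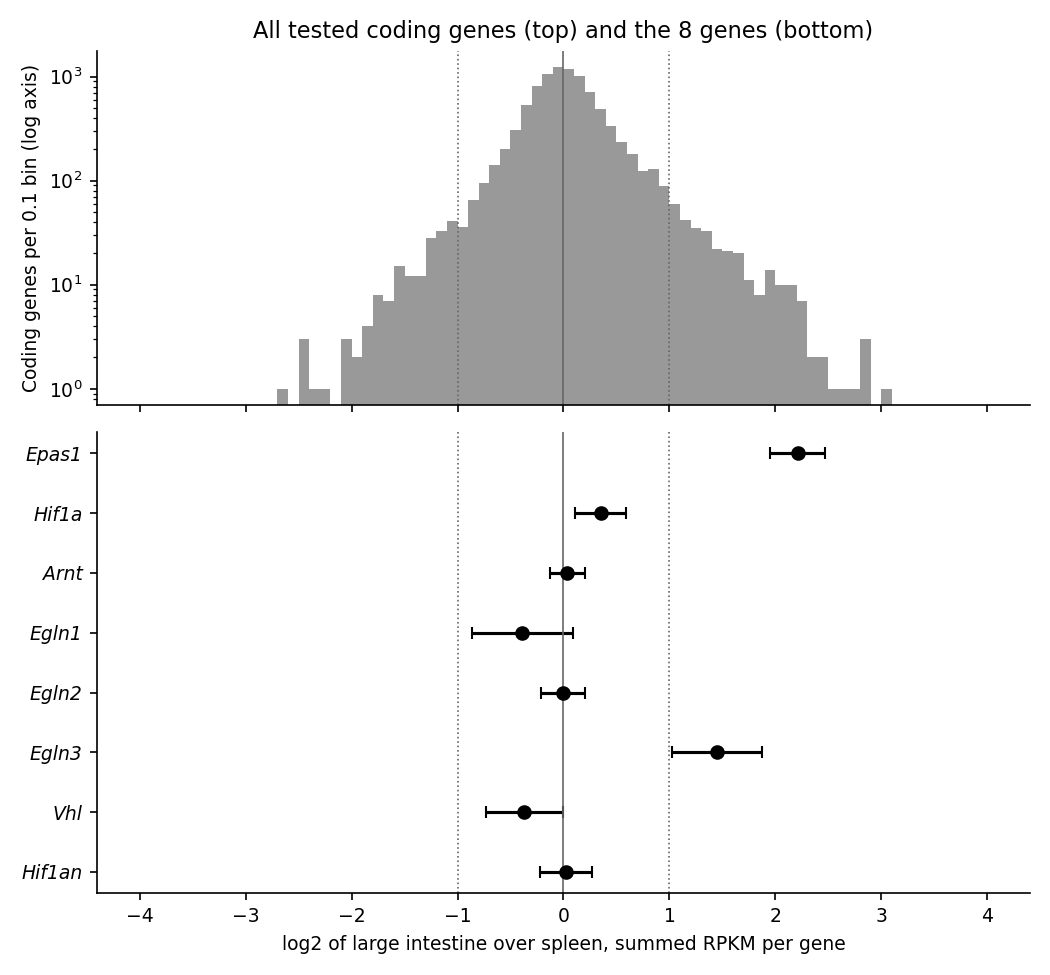
Top, number of tested coding genes per 0.1 bin (log axis) by log2 ratio of LI over spleen summed RPKM. Bottom, the ratio of each of the 8 genes with its approximate 95% counting interval, with dotted lines at 2-fold. Epas1 (2.21) and Egln3 (1.45) lie past the right dotted line, and the other 6 genes lie between -0.39 and 0.35.

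Among the alpha subunits, Epas1 (ENSMUSG00000024140.10, chromosome 17, 86753700 to 86833410, plus strand) stood highest. Its 47 peaks summed to 126.3 RPKM in spleen and 604.5 RPKM in LI, a log2 ratio of 2.21 (1.95 to 2.47), that is 4.62-fold. It was the 15th highest ratio of the 9456 tested genes. The lowest, median and highest peak had 0.0928, 2.79 and 5.92 RPKM in spleen. In LI the same 3 values were 7.29, 12.2 and 21.7 RPKM. The values of the libraries did not overlap: the weakest LI peak exceeded the strongest spleen peak of the gene. Each of the 47 peaks was over 2-fold higher in LI, with log2 ratios from 1.06 to 4.38, against 8.74% of all peaks in coding genes. Of 533 tested genes with at least 40 peaks, 6 had every peak higher in LI, Epas1 being one of them. Under 5 RPKM in spleen were 44 of the 47 peaks (93.6%), against 7.79% of all peaks in coding genes. Since Epas1 was selected on its measured ratio, these shares only describe the gene.

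Peaks of both tissues were merged by the authors, and the table does not state in which tissue a peak was called, so a gene marked in LI alone is measured over regions chosen for their LI signal. Weighted by length, the mean level within the peaks of Epas1 was 3.28 RPKM in spleen (2.91 to 3.68), which is the 0.518th percentile of tested genes, and 15.9 RPKM in LI (15.1 to 16.6), the 66.1st percentile. For reference, the mean level outside all peaks was worked out from the read numbers and depends on the length a read is taken to cover. It was 1.18 RPKM in spleen with 75 bp and 3.65 RPKM with 200 bp. In LI it was 1.14 and 3.61 RPKM. The spleen level of Epas1 lay above the first of the spleen estimates, and its interval held the second. Its LI level was 4.39 times the higher of the LI estimates.

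Along Epas1 the LI signal was higher towards the 3' end and the spleen signal was low throughout. Divided into 10 equal parts from start to end, the gene had LI levels within peaks of 9.54 to 12.7 RPKM in the first 5 parts and 14.5 to 20.8 RPKM in the last 5. In spleen the same levels were 2.24 to 3.76 RPKM and 2.47 to 3.85 RPKM. Peaks covered on average 17.5% of the bases in the first 5 parts and 63.2% in the last 5. The first peak lay 1.42 kb from the gene start. By their midpoints 44 peaks were intronic, 1 lay in a coding exon and 2 in the UTR. The longest, of 8335 bp, ran from 86822970 to 86831304 near the 3' end and had 4.07 RPKM in spleen and 21.7 RPKM in LI. Outside the gene, no peak lay in the 50 kb upstream, and 1 peak in the 50 kb downstream had 4.08 RPKM in spleen and 10.6 RPKM in LI. The gene AC096777.1, of uncertain coding status, lies inside Epas1 and overlaps 1 of the 47 peaks, where the signals cannot be told apart.

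**Figure D2:**
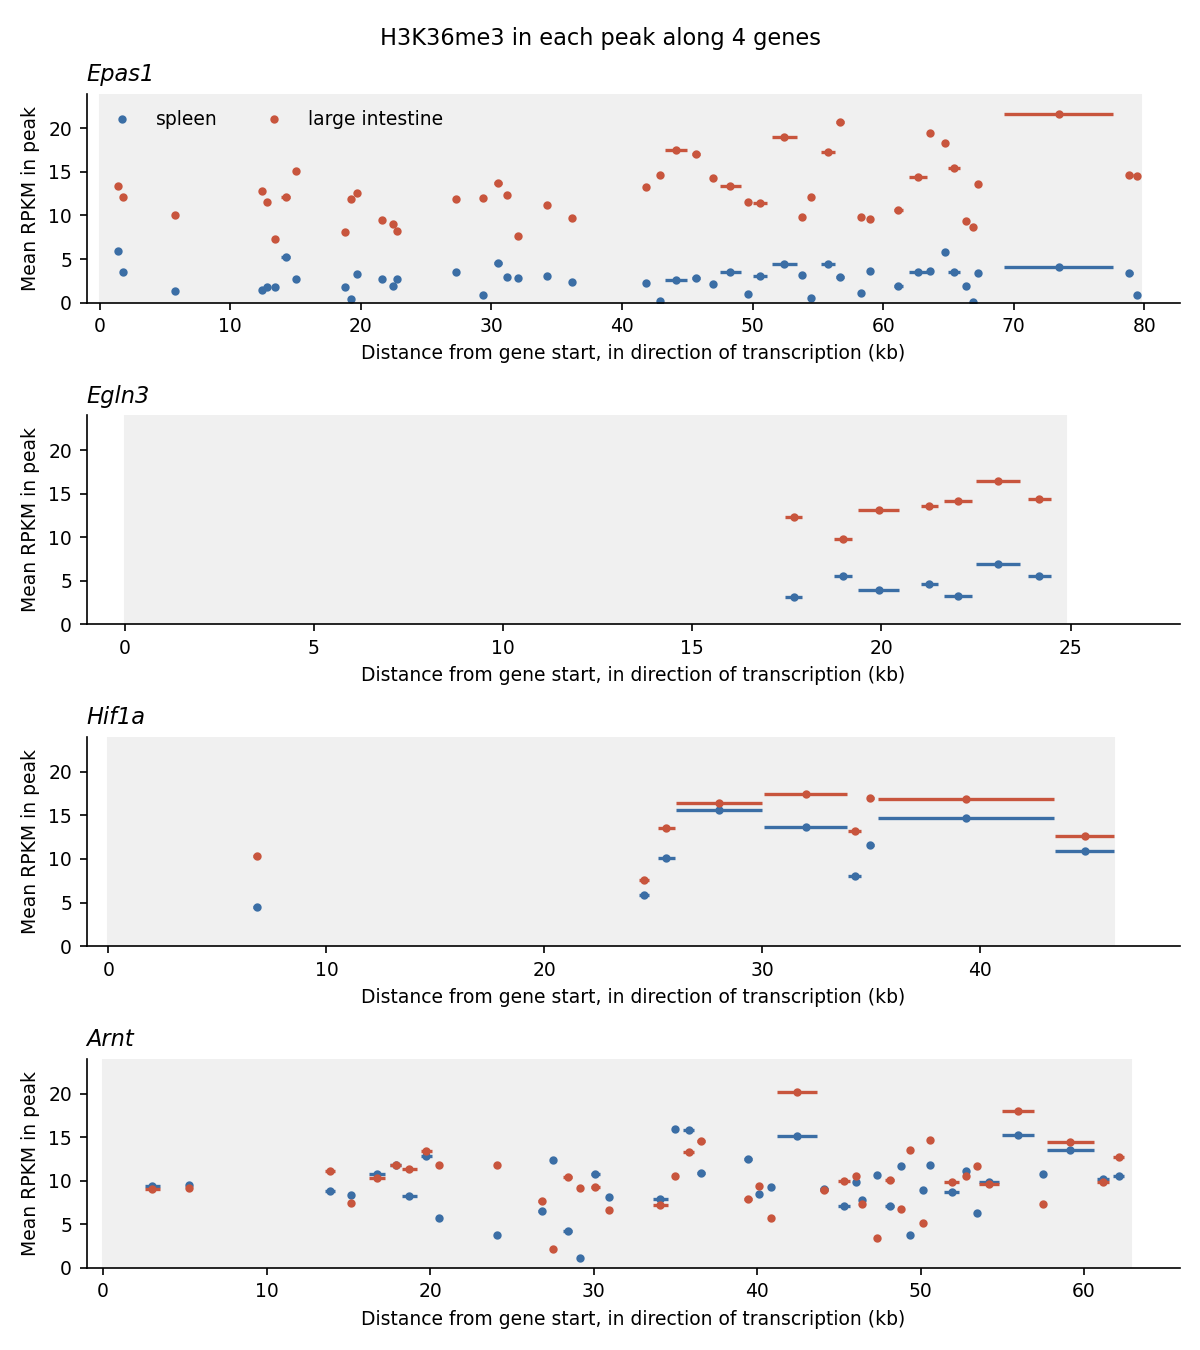
Mean RPKM of each peak in spleen (blue) and LI (red) by distance from the gene start in kb, in the direction of transcription, for Epas1, Egln3, Hif1a and Arnt. Dots mark midpoints, bars the extent of each peak and grey the gene body. Every Epas1 and Egln3 peak is higher in LI, with the 7 Egln3 peaks in the last 3 of its 10 equal parts, while the 43 Arnt peaks lie on both sides.

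None of the coding neighbours of Epas1 with enough signal had a ratio past 2-fold between the libraries. They lay 95.8 kb (Prkce), 248 kb (Gm10309) and 609 kb (Srbd1) from Epas1. Gm10309 had 1 peak, and its interval reached past 2-fold. Upstream, Srbd1 had 360.2 RPKM in spleen and 342.1 RPKM in LI (log2 ratio -0.12, interval -0.32 to 0.084), Gm10309 had 16.6 and 9.52 RPKM (-0.82, interval -2.16 to 0.53), and the kinase gene Prkce had 47.8 and 40.1 RPKM (-0.30, interval -0.97 to 0.38). Downstream, Tmem247 and Atp6v1e2 had no peak, and Rhoq had 1 peak of 6.20 RPKM in spleen and 9.65 RPKM in LI, below the limit. Epas1 is known for its expression in endothelium, and of 12 endothelial markers 11, Cdh5, Kdr, Tek and Vwf among them, had no peak. Pecam1, which T cells also express, was the exception and had less signal in LI, with 910.8 RPKM in spleen and 499.6 RPKM in LI. Markers of further cell types were also examined. Of 12 intestinal epithelium markers 4 had peaks, with 62.4 RPKM in all in spleen and 106.8 RPKM in LI, and Muc2, Krt8 and Cdh1 had none. The 3 tested ones were all higher in LI. They were Epcam (log2 ratio 0.84, interval 0.20 to 1.49), Cldn7 (0.74, interval -0.80 to 2.29) and Lgals4 (0.38, interval -0.38 to 1.14). Vil1, below the limit, had 4.63 RPKM in spleen and 12.6 RPKM in LI. Of 8 stromal markers only Col1a1 had peaks, with 33.6 RPKM in spleen and 67.1 RPKM in LI. Of 10 macrophage and monocyte markers 3 had peaks (213.2 RPKM in spleen and 274.5 RPKM in LI), and Lyz2, Adgre1 and Itgam had none. Most of that signal was counted to Cx3cr1 (183.5 RPKM in spleen and 243.2 RPKM in LI). All 12 of its peaks lie in other coding genes too, so its share is uncertain. Of 8 B cell markers 4 had peaks (72.6 and 53.7 RPKM), and Ms4a1 and Ebf1 had none. The part of other cells in the Epas1 result was not tested beyond these values.

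Hif1a (ENSMUSG00000021109.13, chromosome 12, 73901375 to 73947530, plus strand), the other alpha subunit, was marked in both tissues. Its 9 peaks summed to 95.1 RPKM in spleen and 125.2 RPKM in LI, a log2 ratio of 0.35 (0.11 to 0.59), or 1.27-fold. Weighted by length, the log2 ratio was 0.18, and in peaks of 1 kb or more it was 0.16. A counting interval wholly above 0 was found in 17.5% of tested genes and one wholly below 0 in 14.9%. The peaks ranged from 4.44 to 15.7 RPKM in spleen and from 7.62 to 17.5 RPKM in LI, and the libraries overlapped. All 9 peaks were higher in LI, as was every peak in 170 of 4921 tested genes with at least 7 peaks. Only 1 of the 9, with its midpoint in the UTR 6.80 kb from the gene start, passed 2-fold (4.44 RPKM in spleen and 10.4 RPKM in LI). That peak covered 318 bp, and its GC content of 72.0% was the highest of the gene. Its midpoint lay 0.27 kb from the nearest annotated transcript start of Hif1a. The longest peak, of 8037 bp, had 14.7 RPKM in spleen and 16.9 RPKM in LI, the peak of 3943 bp had 15.7 and 16.4 RPKM, and the peak of 3829 bp had 13.7 and 17.5 RPKM. In the last 5 of 10 equal parts of the gene, peaks covered on average 89.3% of the bases. The antisense gene Gm15283 spans all 9 peaks and the coding gene Gm49321 the last 2, so their shares of this signal are uncertain.

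The levels of the alpha subunits relative to each other differed between the tissues, which largely restates the ratio on which Epas1 was selected. In spleen the mean level within peaks was 3.28 RPKM for Epas1 and 13.5 RPKM for Hif1a (12.5 to 14.5), 0.243 times as much for Epas1. That Epas1 level was 0.897 times the spleen level outside all peaks with reads covering 200 bp. It was measured over regions that may have been chosen for their LI signal. In LI both had 15.9 RPKM (Hif1a 15.0 to 16.8), a ratio of 1.00. Levels between genes are compared only on this scale, which is per length.

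Arnt (ENSMUSG00000015522.18, chromosome 3, 95434388 to 95497240, plus strand), the shared beta subunit, had no detectable difference at this depth. Its 43 peaks summed to 412.1 RPKM in spleen and 436.2 RPKM in LI, a log2 ratio of 0.036 (-0.13 to 0.20). With a peak count close to that of Epas1, it had 21 peaks higher in LI and 22 higher in spleen. The lowest, median and highest peak had 1.08, 9.48 and 16.0 RPKM in spleen and 2.18, 9.98 and 20.2 RPKM in LI, so the libraries overlapped widely. Over 2-fold differences were seen in 4 peaks towards LI and 2 towards spleen, all of them in peaks of at most 592 bp. Of all peaks in coding genes, 8.74% were over 2-fold higher in LI and 9.58% in spleen. The most unequal were a peak of 223 bp with 1.08 RPKM in spleen and 9.17 RPKM in LI (log2 ratio 2.57) and a peak of 289 bp with 12.3 RPKM in spleen and 2.18 RPKM in LI (-2.31). With reads taken as covering 200 bp, the first held about 0.65 reads in spleen and 7.08 in LI. The other held about 9.60 reads in spleen and 2.18 in LI. These 2 peaks lie within 2 kb of each other in intronic sequence. The longest peaks, of 2909 and 2433 bp, gave 0.054 and 0.36.

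**Figure D3:**
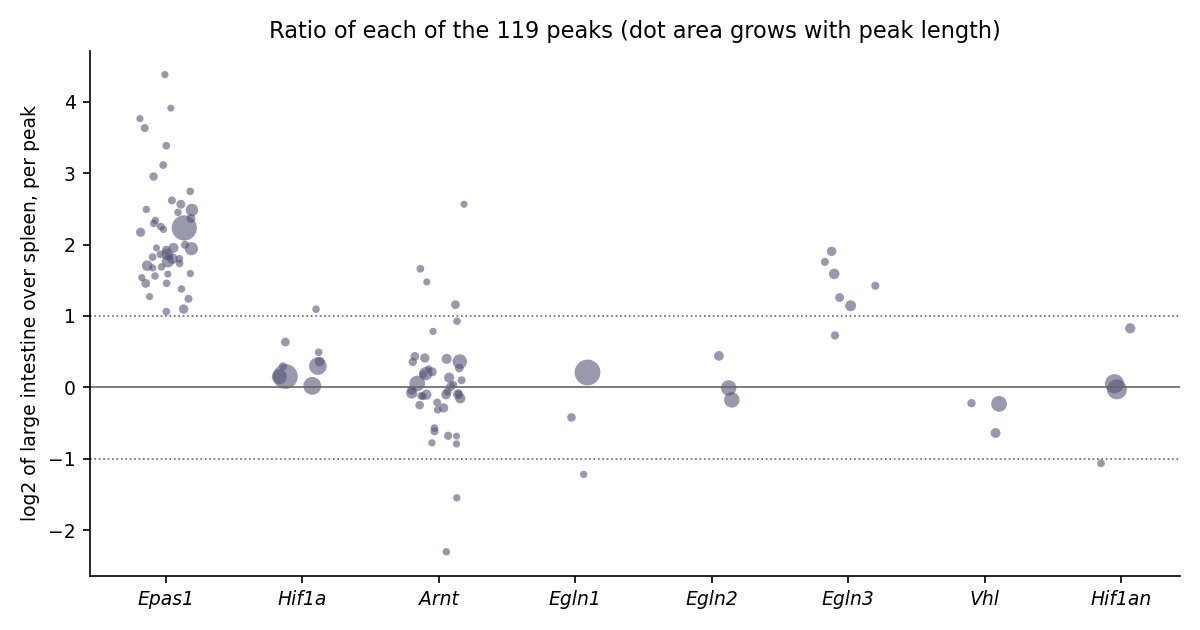
Log2 ratio of LI over spleen for each of the 119 peaks by gene, with dot area growing with peak length and dotted lines at 2-fold. All 47 Epas1 peaks lie above the upper dotted line, 6 of the 7 Egln3 peaks do, and the peaks of Arnt scatter around 0 from -2.31 to 2.57.

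Of the 3 Egln genes, Egln3 was over 2-fold higher in LI. Egln3 (ENSMUSG00000035105.5, chromosome 12, 54178981 to 54203860, minus strand) had 7 peaks that summed to 33.0 RPKM in spleen and 93.9 RPKM in LI. The log2 ratio was 1.45 (1.03 to 1.87), that is 2.73-fold, and ranked 118th of the 9456 genes. In order from the gene start, the spleen values were 3.18, 5.56, 3.89, 4.59, 3.28, 6.93 and 5.55 RPKM. The LI values of the same peaks were 12.3, 9.85, 13.1, 13.6, 14.1, 16.4 and 14.4 RPKM. All 7 peaks were higher in LI and the libraries did not overlap. The tissue in which these merged peaks were called is not stated, so the regions may have been chosen for their LI signal. The least unequal peak, the second from the gene start, had a log2 ratio of 0.73, and the other 6 were over 2-fold higher. Of all peaks in coding genes, 8.74% were over 2-fold higher in LI. Of 4921 tested genes with at least 7 peaks, 170 had every peak higher in LI. The peaks of Egln3 covered 19.9% of the gene and all lay in the last 3 of its 10 equal parts, from 17.7 kb onwards. By midpoint 5 were intronic, 1 lay in a coding exon and 1 in the UTR. In the 50 kb downstream 2 further peaks had 8.07 RPKM in spleen and 26.1 RPKM in LI in all, a ratio of 1.59. The summed spleen signal rests on about 65 reads, the smallest number of the 8 genes.

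Within peaks, the level of Egln3 was 4.89 RPKM in spleen (3.77 to 6.23), the 1.45th percentile of tested genes, and 13.9 RPKM in LI (12.2 to 15.8), the 53.1st percentile. The spleen level was 1.34 times the level outside all peaks with reads covering 200 bp (3.65 RPKM). In LI the level was 3.85 times that of the same library outside all peaks (3.61 RPKM). Downstream of Egln3, the coding neighbours Npas3, Akap6 and Arhgap5 had no peak. Upstream, Sptssa was below the limit with 7.09 RPKM in spleen and 3.34 RPKM in LI, while Eapp (218.7 and 220.9 RPKM, log2 ratio -0.031, interval -0.24 to 0.18) and Snx6 (286.9 and 309.5 RPKM, log2 ratio 0.064, interval -0.12 to 0.25) were near 0. Eapp lay 466 kb and Snx6 542 kb from Egln3.

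Egln1 (ENSMUSG00000031987.6, chromosome 8, 124908587 to 124949324, minus strand), the main oxygen sensor among the 3 enzymes, had 3 peaks that summed to 40.9 RPKM in spleen and 32.1 RPKM in LI, a log2 ratio of -0.39 (-0.87 to 0.087). The direction depended on how its peaks were counted. From the gene start, a peak of 542 bp gave 11.5 RPKM (spleen) and 8.77 RPKM (LI), a peak of 276 bp had 15.3 and 6.51 RPKM, and a peak of 8706 bp that runs past the gene end had 14.0 and 16.8 RPKM. The short peaks were higher in spleen and the long one in LI. Weighted by length, the log2 ratio was 0.15. With reads taken to cover 75 bp, the interval of the summed ratio was -0.70 to -0.077.

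Egln2 (ENSMUSG00000058709.11, chromosome 7, 27158658 to 27166802, minus strand) differed little, with 59.5 RPKM in spleen and 61.3 RPKM in LI over 3 peaks and a log2 ratio of -0.0039 (-0.21 to 0.21). Its peaks from the gene start had 19.3, 9.35 and 30.9 RPKM in spleen and 19.8, 13.3 and 28.2 RPKM in LI. It had the highest level within peaks of the 8 genes in both tissues, 23.1 RPKM in spleen (20.9 to 25.4) and 22.6 RPKM in LI (20.7 to 24.7). Relative to Egln2, the level of Egln3 was 0.212 times in spleen and 0.614 times in LI.

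Vhl (ENSMUSG00000033933.13, chromosome 6, 113623959 to 113631633, plus strand), which recognises the hydroxylated alpha subunits, had 44.0 RPKM in spleen and 35.0 RPKM in LI, a log2 ratio of -0.37 (-0.73 to -0.0065). Its 3 peaks had 9.82, 18.6 and 15.6 RPKM in spleen and 8.63, 16.2 and 10.1 RPKM in LI. Each was lower in LI, none of them 2-fold, and the interval cleared 0 narrowly.

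Hif1an (ENSMUSG00000036450.4, chromosome 19, 44562850 to 44576274, plus strand), the asparaginyl hydroxylase, had 60.1 RPKM in spleen and 63.3 RPKM in LI, a log2 ratio of 0.028 (-0.22 to 0.27). Its 4 peaks from the gene start had 11.3, 16.9, 23.2 and 8.72 RPKM in spleen and 5.32, 18.1, 23.5 and 16.4 RPKM in LI. The first, of 385 bp, was over 2-fold higher in spleen, the last was higher in LI, and the long peaks of 4591 and 4968 bp were nearly equal.

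Ordered by level within peaks, the spleen library ran Egln2, Hif1an (18.8 RPKM), Vhl (17.0), Egln1 (13.9), Hif1a, Arnt (10.8), Egln3 and Epas1. The counting intervals of Hif1an and Vhl, of Vhl and Egln1, and of Egln1 and Hif1a overlapped, and those of the other neighbours in this order did not. In LI the order was Egln2, Hif1an (19.9 RPKM), Egln1 (16.1), Epas1, Hif1a, Vhl (14.2), Egln3 and Arnt (11.9). There the intervals of every pair of neighbours overlapped apart from Hif1an and Egln1. The level within peaks spanned 3.28 to 23.1 RPKM in spleen and 11.9 to 22.6 RPKM in LI.

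**Figure D4:**
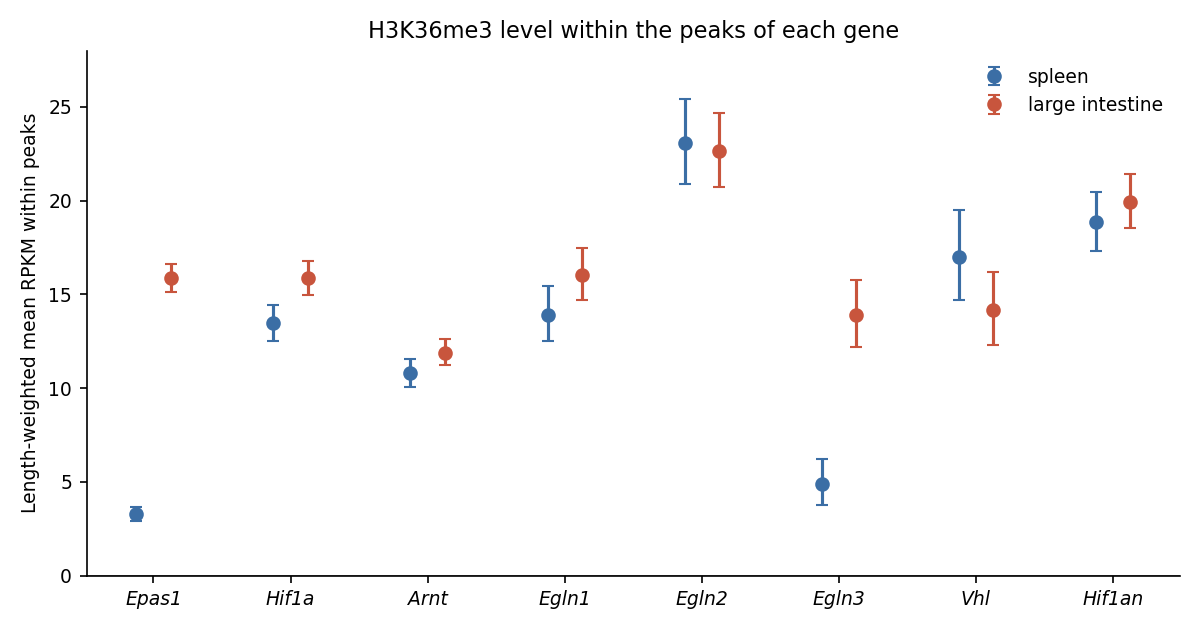
Length-weighted mean RPKM within the peaks of each gene in spleen (blue) and LI (red), with 95% counting intervals that take reads as covering 200 bp. Epas1 and Egln3 are at 3.28 and 4.89 RPKM in spleen and at 15.9 and 13.9 RPKM in LI, and the remaining genes lie above 10 RPKM in both.

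The first peak midpoint lay between 1.40 kb (Hif1an) and 17.7 kb (Egln3) from the outermost annotated start of its gene. The first Hif1a peak lay nearer to another annotated transcript start of that gene, at 0.27 kb. Over the 8 genes, peaks covered between 19.9% of the gene (Egln3) and 81.3% (Hif1an). The mean GC content of their peaks ranged from 42.1% (Hif1a) to 55.2% (Egln2). Over all peaks in 20 bins of GC content, the median log2 ratio went from -0.53 in the lowest bin (median 35.7% GC) to 0.35 in the highest (59.0% GC). Epas1 peaks had a mean of 51.0% GC and Egln3 peaks of 46.1%. With the ratio of each peak corrected for this trend, the log2 ratio was 2.09 for Epas1 and 1.47 for Egln3. For Hif1a the correction raised it to 0.65.

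Among the genes whose ratio was nearest to that of Epas1, out of 6259 coding genes with at least 100 RPKM, were Specc1 (2.22), Metrnl (2.24), Arnt2 (2.14) and Ttyh2 (2.11). All of the peaks of these 4 genes, 6 to 9 in each, were higher in LI. Arnt2 encodes another beta subunit. Nearest to Egln3 were Lgmn (1.45), Pdlim7 (1.44), Phf21b (1.43), Dusp16 (1.48) and Gpr55 (1.42), again with every peak higher in LI. This likeness is that of 1 number per gene over 2 libraries. The genes were picked for that number, so the direction of their peaks largely follows from the choice.

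Further genes of the pathway were taken from lists set by their role. These lists, like the target lists below, were drawn up with earlier results of these data known, so their counts are a description. Of the 3 relatives, Arnt2 had 21.3 RPKM in spleen and 98.3 RPKM in LI (log2 ratio 2.14, interval 1.39 to 2.88) and P4htm, a transmembrane prolyl hydroxylase, had 13.2 and 30.5 RPKM (1.13, interval 0.13 to 2.14). Hif3a, which encodes a further alpha subunit, had 19.6 and 22.1 RPKM (0.12, interval -0.88 to 1.12). So 2 of 3 relatives were over 2-fold higher in LI. Of the 12 tested genes for degradation and folding partners 0 passed 2-fold, where 3.21% of all tested genes did so towards LI and 1.81% towards spleen. These include Elob, Eloc, Cul2 and Rbx1, which form the ubiquitin ligase with Vhl. Their median log2 ratio was -0.15, with 3 genes higher in LI and 9 in spleen, against a median of 0.0045 and 50.7% higher in LI over all tested genes. Rack1 had no peak. Of 4 coactivator genes 3 were tested and 0 passed 2-fold, with Ep300 at -0.041 (interval -0.20 to 0.12), Crebbp at -0.18 (-0.30 to -0.052) and Cited2 at 0.48 (-0.39 to 1.35).

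Known target genes of HIF were examined next. Over the 3 target lists 37 of 54 genes were tested. Of these 25 were higher in LI and 12 in spleen, where 50.7% of all tested genes were higher in LI. Their median was 0.17, against 0.0045 over all tested genes, and fell to 0.067 with the correction for GC content. Past 2-fold were 1 towards LI and 0 towards spleen, close to the 3.21% and 1.81% of all tested genes. The list of glucose uptake and glycolysis genes had a median of 0.27 in 19 tested genes. Of these 15 were higher in LI, against 50.7% of all tested genes. The correction for GC content was not run for this list alone. Gapdh had the highest ratio, with 5.39 RPKM in spleen and 16.5 RPKM in LI (1.48, interval 0.45 to 2.52), but it rests on 1 peak, and reads of this gene with many pseudogene copies are uncertain. Mxi1, a repressor related to the Myc network, followed with 178.8 RPKM in spleen and 363.7 RPKM in LI (0.98, interval 0.74 to 1.21), and 29 of its 31 peaks were higher in LI. The lowest were Pdk1, the kinase that restrains pyruvate dehydrogenase, with 279.5 RPKM in spleen and 176.6 RPKM in LI (-0.71, interval -0.94 to -0.47), and the chemokine receptor gene Cxcr4 with 74.2 and 53.6 RPKM (-0.51, interval -0.96 to -0.062). In 20 of the 22 Pdk1 peaks the value was higher in spleen. Among the remaining targets, 13 had no peak in either tissue, Vegfa, Adm, Car9 and Edn1 among them, and 4 were below the limit. Of the iron and erythropoietin list 3 of 6 were tested, with a median of 0.17. The annotated body of Epo spans other coding genes, and 4 of its 8 peaks lie in them too.

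**Figure D5:**
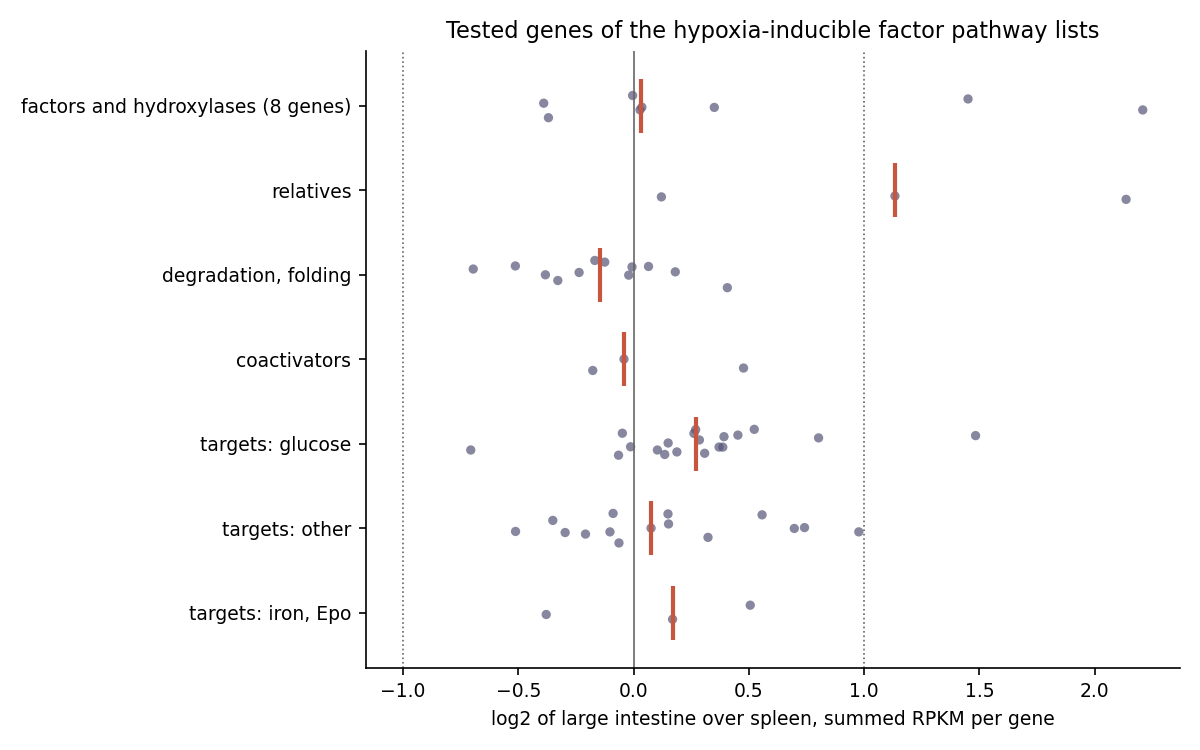
Log2 ratio of LI over spleen summed RPKM for each tested gene of the 8 HIF genes and of 6 pathway lists, 1 dot per gene, with a red bar at the median of each list and dotted lines at 2-fold. Past 2-fold towards LI lie Epas1, Egln3, Arnt2, P4htm and Gapdh, and no dot lies past 2-fold towards spleen.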

How the data were processed

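H3K36me3 ChIP-seq was performed on pooled, sorted Treg cells with 1 library per tissue. The authors aligned single-end reads to mm10, called peaks with MACS2 against input, merged the peaks of both tissues and deposited RPKM values, the mean coverage of each merged peak. The values of this table, which is named as raw counts, are not whole numbers, so no count test was used. FastQC, Bowtie2, MACS2 and bedtools are named in the submitters' processing notes without versions. No peak lay past a chromosome end of GRCm38 (0 of 21 chromosomes).

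Peaks were assigned by midpoint to GENCODE M21 protein-coding bodies and summed per gene with Python 3 tools (numpy, pandas, scipy and pysam). Ratios used a pseudocount of 0.5 RPKM, a minimum of 20 RPKM and scaling to column totals. The pseudocount draws the ratios of low genes towards 0, and the effect of merging the peaks on them was not tested. Named genes were the 8 genes, the 5 genes nearest in ratio to each gene past 2-fold, 3 coding neighbours per side, and from the lists the genes past 2-fold and the 2 highest and 2 lowest targets. Some genes of these rules and lists are not reported here. Whole multiples of 1 bin of 20 bp gave the depth. Reads were not recovered, since their extension is not stated, so the 95% intervals are approximate, cover counting error only and treat reads as independent molecules. The code was tested on simulated data. The members and lists were chosen with earlier results of these data known. Alternatives were other scalings, pseudocounts, filters, weights and peak assignments, and a GC correction.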

Additional observations from a re-analysis of the deposited data

How the results depend on the processing

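Over the 8 gene ratios, the counts past 2-fold and the target list median, 120 values were recomputed, of which 106 stayed within the counting interval of the reported value (or 1.5 times a reported count), 14 moved further and 0 reversed a value past 2-fold. The ratio ranged from 2.07 to 2.25 for Epas1 and from 1.14 to 1.50 for Egln3, so both were over 2-fold higher in LI under every alternative run for them. The ratio of Egln1 became 0.154 with values weighted by peak length and 0.208 in its strongest peak and in peaks of 1 kb or more, which leave 1 peak of the gene. Hif1a moved to 0.021 in its strongest peak and to 0.648 with the GC correction, Arnt to 0.361 in its strongest peak, and Egln2 to -0.255 with the GC correction. The cause was not tested. Genes past 2-fold towards LI and spleen numbered 108 and 32 with peaks of 1 kb or more (7172 genes tested), 468 and 307 with no filter, and 68 and 37 with at least 200 RPKM, where 1 of the 3 tested HIF genes, Epas1, passed. Fewer genes were tested under the stricter settings. With reads covering 200 bp, counting intervals clear of 0 were found in 4 of the 8 genes (over all tested genes, 17.5% lay above and 14.9% below 0). With reads covering 75 bp, an alternative chosen after the data were seen, they were found in 5. These intervals are narrower, and the share over all tested genes is not given for them, so nothing is read from the 5. No paired analysis was possible because each tissue has 1 library. Low spleen signal limits the precision of Egln3, and the absence of replicates limits every ratio.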
